A study of Mus musculus with 9 samples.

Results

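The genes described here are 10 grouped as genes of cones, the photoreceptors of colour and daylight vision: the opsins Opn1sw and Opn1mw, the transducin subunits Gnat2, Gnb3 and Gngt2, the phosphodiesterase subunits Pde6c and Pde6h, the arrestin Arr3, the channel subunit Cngb3 and the potassium channel accessory subunit Kcne2. All but Kcne2 serve phototransduction itself. The 10 were chosen by symbol, and each was read from probe sets annotated to that symbol alone. Where a gene had several, the probe set with the highest mean over all arrays stood for it and the others served as a check. All 10 were measured, among 18193 genes in all. Affymetrix arrays, 9 in all, measured the RNA of cells of the mouse retina that had been sorted by their green fluorescence. The rhoGFP line, also labelled rhoEGFP, carries a green fluorescent reporter for rods, and its retinae at postnatal day 4 (P4) gave a rhoGFP-positive and a rhoGFP-negative fraction. The pNestin-GFP line carries a reporter for nestin, an intermediate filament of progenitor cells, and its retinae at postnatal day 0 (P0) gave a nestinGFP-positive fraction. Both lines had the genetic background C57BL/6J-129/Ola, and each of the 3 replicates of a group pooled the retinae of 6 to 8 mice. No fraction was sorted for cones, so cones can be present in each of them. The rod reporter separates cells only as far as its promoter is active in them, and the nestin reporter keeps its protein for some time in the daughters of progenitors. The P0 group differs from both P4 groups in age, line and sorted population together, and these cannot be told apart.

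In cones, light turns an opsin into an active form that switches on the G protein transducin. Transducin lifts the inhibitory subunit off a phosphodiesterase, which destroys cyclic GMP, and cation channels held open by cyclic GMP close. Arrestin ends the signal at the opsin. Rods use the same chain with their own version of nearly every protein, so most cone members have a rod counterpart in the genome. Mouse cones are born before birth, earlier than most rods, and the short-wavelength opsin appears in them before the medium-wavelength opsin.

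Values are log2 robust multi-array average (RMA) signals, a scale on which 1 unit is a 2-fold difference and on which low signals are compressed. The median value of an array lay between 6.08 and 6.17, and the median standard error of a difference between groups was 0.14. A gene was called when limma gave an adjusted p below 0.05 over all genes and the difference was at least 1 log2 unit. Control probe sets for 18S ribosomal RNA stood at 12.1 to 13.6 on the replicate 1 arrays of all groups and at 9.65 to 10.4 on the others. The 3' minus 5' difference of the actin controls, a sign of RNA integrity, was 0.847 to 0.975 in the rhoGFP-positive, 0.637 to 0.677 in the rhoGFP-negative and 0.403 to 0.991 in the nestinGFP-positive fraction. Of the markers of other retinal cells, 6 of 6 rod genes were called higher in the rhoGFP-positive cells against either other group, while 7 of 8 progenitor, 5 of 6 amacrine, 3 of 5 Müller glia and 2 of 4 vessel genes were called lower. Called higher in these lists were the Müller glia gene Clu against either group (1.05 and 1.37) and the amacrine gene Slc6a9, a glycine transporter, against P0 alone (2.01, limma adjusted p = 0.000805). The vessel genes Pecam1 and Cdh5 were not called. In other lists the pigment epithelium gene Tyrp1 was called higher against either group (1.94 and 2.62) and the microglial gene Tyrobp against P0 (1.72). Of 5 ganglion genes, 2 were called lower against P0, and of 5 horizontal genes 2 and 1 against rhoGFP-negative and P0 cells. Over all genes, 3.61% were called higher and 7.32% lower between the rhoGFP fractions, and 5.06% and 10.5% against P0.

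Between the P4 fractions, the question was which cone genes differed between cells with and without the rod reporter. All 10 cone genes had a higher mean in the rhoGFP-positive cells, but limma called only 2, Cngb3 (2.95-fold) and Kcne2 (2.02-fold), and none lower; over all genes 3.61% were called higher, 7.32% lower and 10.9% in either direction. The median difference of the 10 was 0.46, against 0.01 over all genes tested. In 4 of 10 the rhoGFP-positive arrays all lay above the rhoGFP-negative ones, as in 17.9% of all genes, and in none of the 10 all below, as in 20.3%.

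Against the P0 nestinGFP-positive cells, the question was which cone genes differed between the rod-reporter fraction and the earlier progenitor-reporter fraction. Here 6 of 10 were called higher in the rhoGFP-positive cells and none lower: Gnb3 (3.27-fold), Kcne2 (2.86-fold), Cngb3 (2.51-fold), Pde6h (2.41-fold), Gngt2 (2.35-fold) and Opn1sw (2.13-fold). Over all genes, 5.06% were called higher, 10.5% lower and 15.6% in either direction. The median difference of the 10 was 1.16, against 0.06 over all genes. The rhoGFP-positive arrays all lay above the P0 arrays in 8 of 10, as in 24.4% of all genes, and all below in none, as in 23.4%. Both comparisons use the same rhoGFP-positive arrays, so they are not independent of each other.

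Between the rhoGFP-negative P4 cells and the nestinGFP-positive P0 cells, limma called none of the 10 at the 1-unit minimum, where 0.989% of all genes were called, 0.385% as higher and 0.605% as lower. Gngt2 alone of the 10 had an adjusted p below the threshold, as did 2.03% of all genes. Unadjusted p values were below 0.05 in 3 members, Gnb3, Gngt2 and Kcne2, a count whose share over all genes was not taken. The median difference was 0.40, against 0.03 over all genes, and in 4 of 10 the rhoGFP-negative arrays all lay above the nestinGFP-positive ones, as in 11.8% of all genes, and in none all below, as in 8.79%. In bulk RNA, fewer cells of a type and less RNA per cell cannot be told apart, and this holds for each difference given here.

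**Figure D1:**
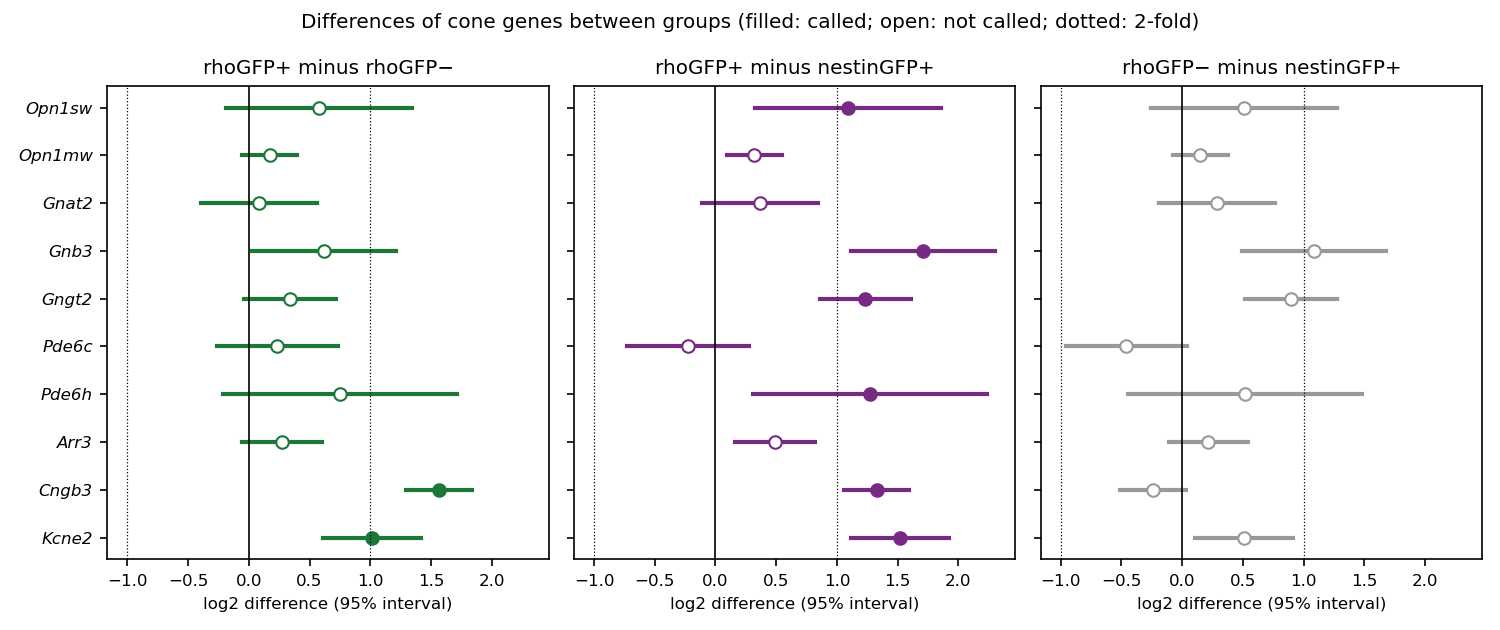
Log2 differences of the 10 cone genes in the 3 comparisons, with 95% intervals from limma (n = 3 arrays a group). Filled points were called and dotted lines mark a 2-fold difference. Only Cngb3 and Kcne2 are filled in the left panel and 6 genes are filled in the middle one.

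Opn1sw encodes the short-wavelength cone opsin, the visual pigment of cones sensitive to blue and ultraviolet light. It was read from probe set 1449132_at, at percentile 90.1 of all genes by mean signal. It stood at 9.98, 10.92 and 11.37 on the 3 rhoGFP-positive arrays in order of replicate number, at 9.74, 10.09 and 10.71 on the rhoGFP-negative arrays and at 9.76, 9.81 and 9.44 on the nestinGFP-positive arrays. Replicate 1 was the lowest rhoGFP-positive array, lay below 2 of the 3 rhoGFP-negative arrays and was still above all nestinGFP-positive arrays. The order of the means was rhoGFP-positive, rhoGFP-negative, nestinGFP-positive, and neither pair of neighbours passed the test. The difference of the outer groups was 1.09 ± 0.34 (SE, n = 3, limma adjusted p = 0.0317). Between the rhoGFP fractions the difference was 0.58, with a 95% interval from -0.19 to 1.34 (limma adjusted p = 0.289). In this fit, which does not use the replicate numbers, a difference above 2-fold is within its error. Taken within replicates 1, 2 and 3 it was 0.24, 0.83 and 0.66, and it was not called under any of 22 alternatives. Without rhoGFP-positive replicate 1 the same difference was 0.97 (limma adjusted p = 0.0339), still below the 1-unit minimum. The call against the P0 cells was lost in 5 of the 9 fits that left out an array. These were without rhoGFP-positive replicate 2 (1.01, limma adjusted p = 0.0987) or 3 (0.78, 0.109) and without each of the nestinGFP-positive arrays in turn (0.97 to 1.16, highest adjusted p = 0.0903). Over all 9 such fits the difference ran from 0.78 to 1.48, with limma adjusted p values of 0.00314 to 0.109. Its second probe set, 1418552_at, is dim and gave 0.55 in that comparison (limma adjusted p = 0.0678 in a fit of all probe sets).

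Opn1mw encodes the medium-wavelength opsin, the green-sensitive pigment that reaches its adult level after the short-wavelength one. Its probe set, 1419723_at, lay at percentile 21.5 of all genes, a dim signal for which the table holds no detection call. Its values were 5.06, 5.01 and 5.07 on the rhoGFP-positive arrays, 4.83, 4.85 and 4.94 on the rhoGFP-negative arrays and 4.65, 4.64 and 4.88 on the nestinGFP-positive arrays. The rhoGFP-positive arrays were the 3 highest of the 9, but the whole span was under 1 log2 unit. The difference was 0.17 (95% interval -0.05 to 0.40, limma adjusted p = 0.287) between the rhoGFP fractions and 0.32 (0.09 to 0.55, limma adjusted p = 0.033) against the P0 cells, both below the minimum for a call.

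The 2 opsin promoters are shown because the transcription factors that read such sequences were measured on the same arrays. They are the 250 bases before the transcription start, 5′ to 3′ on the strand of the gene, from RefSeq (GRCm38.p6): chr6:29380514-29380763, minus strand, for Opn1sw, and chrX:74127216-74127465, plus strand, for Opn1mw. Capitals mark every match on either strand to TAATC, which reads GATTA on the other strand, the core that the photoreceptor factors CRX and OTX2 bind, and to AGGTCA, which reads TGACCT on the other strand, a core element of thyroid hormone and retinoid receptors. No base belonged to both motifs.
Opn1sw: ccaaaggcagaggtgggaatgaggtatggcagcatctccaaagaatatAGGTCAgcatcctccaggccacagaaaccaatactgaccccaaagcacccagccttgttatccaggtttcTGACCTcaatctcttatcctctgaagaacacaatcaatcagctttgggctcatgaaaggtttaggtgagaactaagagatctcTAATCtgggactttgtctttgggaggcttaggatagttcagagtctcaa
Opn1mw: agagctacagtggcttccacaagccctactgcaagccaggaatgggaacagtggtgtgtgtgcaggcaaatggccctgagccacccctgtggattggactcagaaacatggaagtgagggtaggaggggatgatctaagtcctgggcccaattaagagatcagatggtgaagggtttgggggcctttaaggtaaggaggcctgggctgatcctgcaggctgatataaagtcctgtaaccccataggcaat
Opn1sw held 1 TAATC, at 49 to 45 bases before the start, and 2 matches to AGGTCA, at 202 to 197 and 132 to 127 bases before it. Opn1mw held neither in this window. Of the 32851 windows of this length in the table, 19.8% held at least 1 TAATC, 14.0% at least 1 AGGTCA and 1.36% at least 2 AGGTCA. A match is a description of letters and not of a bound site.

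Gnat2 encodes the alpha subunit of cone transducin, which carries the signal from opsin to phosphodiesterase. Probe set 1422907_at gave 8.39, 8.75 and 8.43 on the rhoGFP-positive arrays, 8.30, 8.11 and 8.91 on the rhoGFP-negative arrays and 8.16, 8.40 and 7.91 on the nestinGFP-positive arrays. The highest of all 9 arrays was rhoGFP-negative replicate 3, and the 3 groups overlapped. Between the rhoGFP fractions the difference was 0.08, with a 95% interval from -0.40 to 0.56 (limma adjusted p = 0.849). The interval of the difference ran from -0.11 to 0.84 against the P0 cells (limma adjusted p = 0.212). Its direction between the rhoGFP fractions was not stable: it turned to -0.031 without rhoGFP-positive replicate 2 and to -0.082 without rhoGFP-negative replicate 2.

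Gnb3 encodes the beta subunit of cone transducin and is also known from ON bipolar cells. Its values (probe set 1449159_at, percentile 98.1) were 11.77, 12.70 and 12.84 on the rhoGFP-positive arrays, 11.54, 12.01 and 11.89 on the rhoGFP-negative arrays and 10.90, 10.81 and 10.47 on the nestinGFP-positive arrays. All 6 arrays of P4 lay above all 3 of P0, and the P4 fractions overlapped through rhoGFP-positive replicate 1. The order of the means was rhoGFP-positive, rhoGFP-negative, nestinGFP-positive. The outer difference was 1.71 ± 0.26 (SE, limma adjusted p = 0.000683). The difference between the rhoGFP fractions was 0.62 ± 0.26 (95% interval 0.03 to 1.22, limma adjusted p = 0.129) and that between the rhoGFP-negative and the P0 cells 1.09 ± 0.26 (limma adjusted p = 0.0687). With the replicate number as a block the latter was called (limma adjusted p = 0.0151). It was also called without rhoGFP-positive replicate 1 (limma adjusted p = 0.0236). Leaving that array out moved the difference between the rhoGFP fractions to 0.96 (limma adjusted p = 0.00531), below the minimum. Taken within replicates 1, 2 and 3 the difference between these fractions was 0.23, 0.69 and 0.95. It was not called under any of 21 alternatives. Of 5 bipolar markers, 2 were called higher in the rhoGFP-positive cells in both comparisons, the kinase gene Prkca (1.51 and 1.44) and the G protein subunit gene Gng13 (1.20 and 1.57). The other 3 were not called: between the rhoGFP fractions Cabp5 differed by -0.72 (limma adjusted p = 0.0109, all rhoGFP-positive arrays below), Vsx1 by -0.28 and Trpm1 by 0.12. The mean level of the 5 was 7.03 to 7.13 on the rhoGFP-positive, 6.59 to 6.84 on the rhoGFP-negative and 6.27 to 6.46 on the nestinGFP-positive arrays; their part in the Gnb3 result was not tested.

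Gngt2 encodes the gamma subunit of cone transducin. On probe set 1428733_at it stood at 7.24, 7.25 and 7.73 on the rhoGFP-positive arrays, 7.22, 7.17 and 6.82 on the rhoGFP-negative arrays and 6.31, 6.21 and 6.00 on the nestinGFP-positive arrays. All P4 arrays lay above all P0 arrays by at least 0.5 log2 units, and the rhoGFP fractions touched without overlapping. The difference against the P0 cells was 1.23 ± 0.17 (limma adjusted p = 0.000305) for the rhoGFP-positive and 0.90 ± 0.17 (limma adjusted p = 0.0319) for the rhoGFP-negative cells, the second below the minimum of 1. It passed that minimum without rhoGFP-negative replicate 3 (1.02, limma adjusted p = 0.0127). Between the rhoGFP fractions the difference was 0.34 (95% interval -0.04 to 0.72, limma adjusted p = 0.198). Within replicates 1, 2 and 3 that difference was 0.02, 0.08 and 0.91, so most of it came from replicate 3. The mean level of 5 microglial markers was 6.51 on rhoGFP-positive replicate 3 and 5.51 and 5.66 on the other arrays of that group. That of 3 lens markers was 6.71 on the same array and 5.34 and 5.54 on the others. For Gngt2, rhoGFP-negative replicate 3 (6.82) was also the lowest array of its own group. The part of these markers in the result was not tested.

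Pde6c encodes the catalytic alpha-prime subunit of the cone phosphodiesterase. Probe set 1450830_a_at gave 6.27, 6.67 and 6.55 on the rhoGFP-positive arrays, 6.06, 6.01 and 6.72 on the rhoGFP-negative arrays and 6.38, 7.03 and 6.76 on the nestinGFP-positive arrays. It was the only member with its highest mean in the P0 cells, and all groups overlapped. The differences were 0.23 (95% interval -0.27 to 0.73) between the rhoGFP fractions, -0.23 (-0.73 to 0.27) for rhoGFP-positive minus P0 and -0.46 (-0.96 to 0.04) for rhoGFP-negative minus P0, with limma adjusted p values of 0.545, 0.462 and 0.32.

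Pde6h encodes the inhibitory gamma subunit that holds the cone phosphodiesterase in check in the dark. Its values (probe set 1450766_at) were 8.99, 8.35 and 8.56 on the rhoGFP-positive arrays, 7.69, 7.37 and 8.59 on the rhoGFP-negative arrays and 8.10, 7.61 and 6.38 on the nestinGFP-positive arrays. rhoGFP-negative replicate 3 lay with the rhoGFP-positive arrays, and nestinGFP-positive replicate 3 far below its group. The difference was 1.27 ± 0.43 (SE, limma adjusted p = 0.0436) against the P0 cells and 0.75 (95% interval -0.21 to 1.71, limma adjusted p = 0.274) between the rhoGFP fractions. The call was lost without each of the rhoGFP-positive arrays in turn, without rhoGFP-negative replicate 1 and without nestinGFP-positive replicate 2 or 3, over a range of 0.78 to 1.41 with adjusted p values up to 0.124. The 0.78 was the value without nestinGFP-positive replicate 3. The second probe set, 1450765_a_at, followed the first, with 1.36 against the P0 cells (limma adjusted p = 0.0202 in a fit of all probe sets) and 0.71 between the rhoGFP fractions (0.246). In that fit the first probe set lost its call against the P0 cells (limma adjusted p = 0.0602).

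The opsins, Gnat2, Pde6c, Pde6h and, by a small margin, Kcne2 had their highest rhoGFP-negative value on replicate 3. On that array 8 of 10 members lay above their group mean, and 9 of 10 did so on nestinGFP-positive replicate 2. On the other arrays the count was 2 to 6. The share over all genes was not taken. Over the 9 arrays, after the group means were taken out, Opn1sw and Gnb3 varied together (r = 0.87), as did Gnat2 and Pde6c (r = 0.79), a description of these arrays over pools that share replicate numbers.

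**Figure D2:**
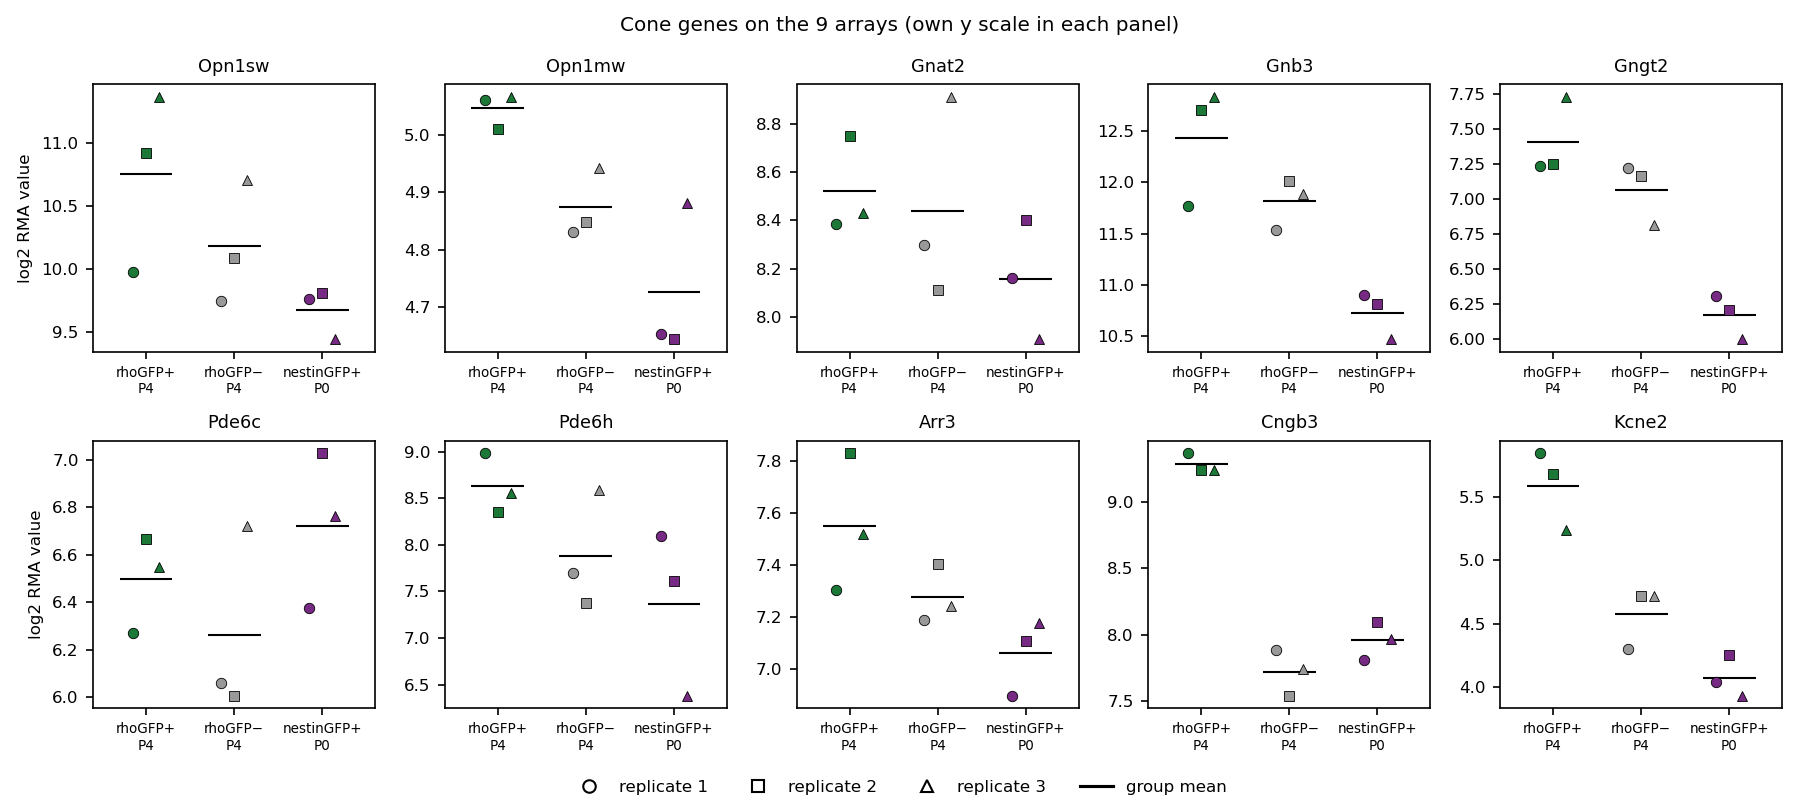
Log2 RMA values of the 10 cone genes on the 9 arrays, with the group mean as a bar and the replicate number as the symbol; each panel has its own y scale. Cngb3, Kcne2 and, by small margins, Opn1mw and Gngt2 separate the 3 rhoGFP-positive arrays from the other 6, while Gnat2 and Pde6c overlap in all groups.

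Cngb3 encodes the beta subunit of the cyclic GMP-gated channel of cones, loss of which causes achromatopsia in humans. Its values (probe set 1450492_at, percentile 64.3) were 9.37, 9.24 and 9.24 on the rhoGFP-positive arrays, 7.88, 7.54 and 7.74 on the rhoGFP-negative arrays and 7.81, 8.09 and 7.96 on the nestinGFP-positive arrays. The rhoGFP-positive arrays lay more than 1 log2 unit above each of the 6 others. The difference was 1.56 ± 0.12 (95% interval 1.29 to 1.83, limma adjusted p = 1.77e-05) between the rhoGFP fractions and 1.33 ± 0.12 (1.05 to 1.60, limma adjusted p = 2.58e-05) against the P0 cells. Within replicates 1, 2 and 3 the difference between the rhoGFP fractions was 1.49, 1.70 and 1.50. The other groups differed by -0.24 for rhoGFP-negative minus P0 (95% interval -0.51 to 0.04, limma adjusted p = 0.351). Both calls held under all 21 alternatives, with 1.47 to 1.64 between the rhoGFP fractions and 1.21 to 1.40 against the P0 cells.

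Arr3 encodes cone arrestin, which binds light-activated cone opsin and stops its signal. Its 3 probe sets gave different sizes. The brightest, 1441144_at, stood at 7.30, 7.83 and 7.52 on the rhoGFP-positive arrays, at 7.19, 7.40 and 7.24 on the rhoGFP-negative arrays and at 6.90, 7.11 and 7.18 on the nestinGFP-positive arrays. On it the rhoGFP fractions overlapped and both P4 fractions lay above the P0 cells. The difference was 0.27 (95% interval -0.05 to 0.60, limma adjusted p = 0.236) between the rhoGFP fractions and 0.49 (0.16 to 0.82, limma adjusted p = 0.0257) against the P0 cells, below the minimum. Probe set 1450329_a_at stood at 6.24, 6.31 and 6.21 on the rhoGFP-positive arrays, at 5.20, 5.08 and 5.46 on the rhoGFP-negative arrays and at 4.88, 5.07 and 4.46 on the nestinGFP-positive arrays. There the rhoGFP-positive arrays were apart from all others. Its differences were 1.01 (limma adjusted p = 0.00272 in a fit of all probe sets) between the rhoGFP fractions and 1.45 (0.000209) against the P0 cells, both past the threshold for a call. The third probe set, 1425232_x_at, whose suffix marks probes shared with other transcripts, gave 0.58 (limma adjusted p = 0.0934) and 1.10 (0.00347). The 3 probe sets had the same order of the group means, and the call for Arr3 depended on which was read.

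The Arr3 promoter window is shown because it held the most TAATC matches of the members with an entry (RefSeq, GRCm38.p6, chrX:100605247-100605496, plus strand, 250 bases before the start, capitals as above).
Arr3: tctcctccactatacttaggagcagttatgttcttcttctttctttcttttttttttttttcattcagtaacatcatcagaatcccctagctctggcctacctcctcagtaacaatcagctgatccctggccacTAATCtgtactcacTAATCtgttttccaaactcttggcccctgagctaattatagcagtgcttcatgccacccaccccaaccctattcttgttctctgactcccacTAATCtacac
Its 3 matches lay at 116 to 112, 102 to 98 and 10 to 6 bases before the start. At least 3 were held by 0.554% of all windows. That share is for any window, while this one was picked for its count. Of the members, 6 had an entry in the promoter table, and 4 of these 6 held at least 1 TAATC: Opn1sw, Arr3, Gnat2 at 18 to 14 bases before its start, and Kcne2. Of all windows 19.8% held at least 1, and Kcne2 had 2 windows. Pde6h held none. Gnb3, Gngt2, Pde6c and Cngb3 had no entry.

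**Figure D3:**
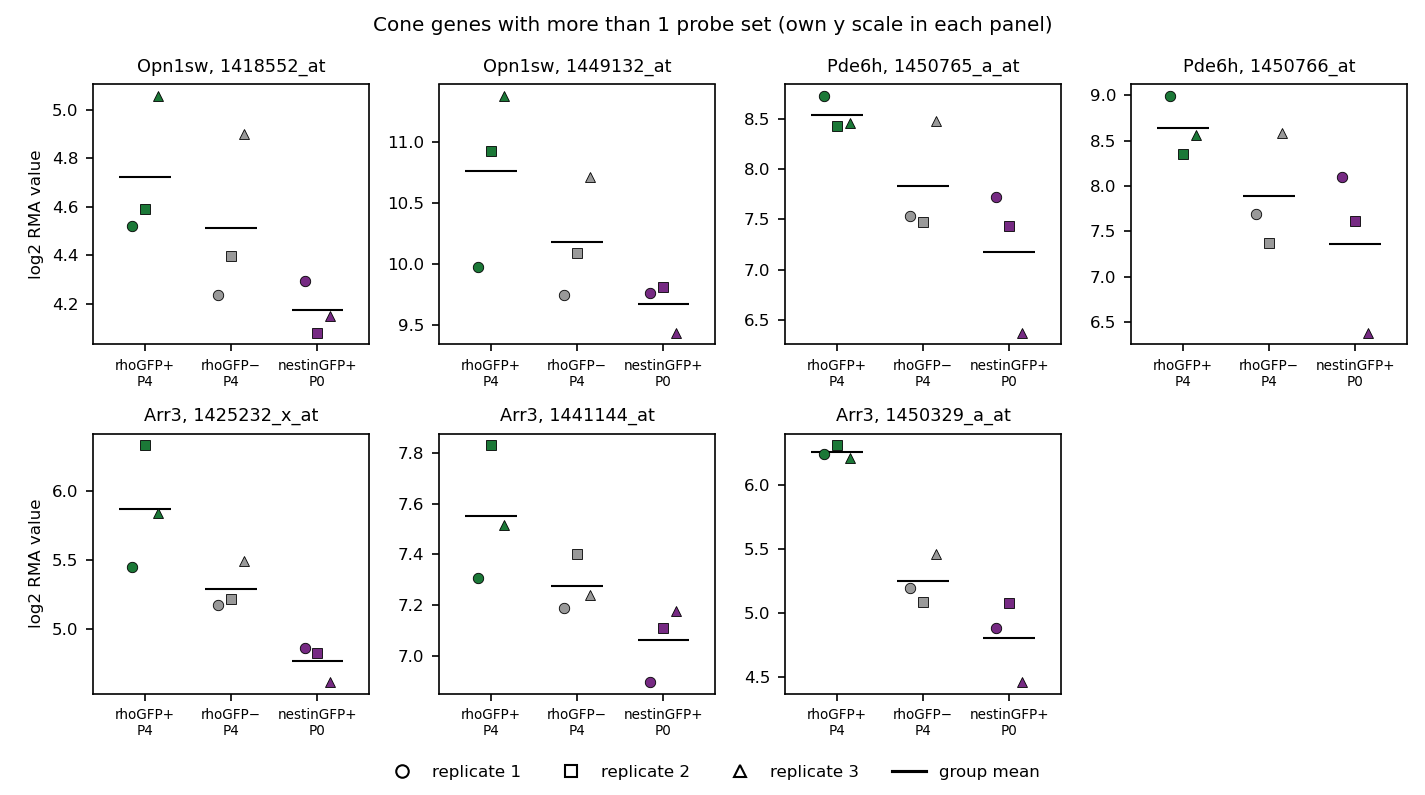
Log2 RMA values of the 3 cone genes with more than 1 probe set, Opn1sw, Pde6h and Arr3, by group and replicate, with the group mean as a bar and an own y scale in each panel. For Arr3 the rhoGFP-positive arrays are separate from the rhoGFP-negative ones on 1450329_a_at and overlap with them on the other probe sets.

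Kcne2 encodes a single-pass accessory subunit that joins voltage-gated potassium channels and changes their gating. On probe set 1449421_a_at it stood at 5.85, 5.68 and 5.24 on the rhoGFP-positive arrays, 4.30, 4.71 and 4.72 on the rhoGFP-negative arrays and 4.04, 4.25 and 3.93 on the nestinGFP-positive arrays. No 2 groups overlapped, and the order of the means was rhoGFP-positive, rhoGFP-negative, nestinGFP-positive. The difference was 1.01 ± 0.18 (limma adjusted p = 0.00253) between the rhoGFP fractions and 1.52 ± 0.18 (limma adjusted p = 0.000131) against the P0 cells. That between the rhoGFP-negative and the P0 cells was 0.51 (95% interval 0.10 to 0.91, limma adjusted p = 0.177). The first of these sits at the 1-unit minimum: it was 0.88 without rhoGFP-positive replicate 1, 0.97 without rhoGFP-positive replicate 2 and 0.87 without rhoGFP-negative replicate 1, with adjusted p values up to 0.014. With replicates 2 and 3 alone it was 0.74 (limma adjusted p = 0.026). Within replicates 1, 2 and 3 it was 1.55, 0.97 and 0.52. The signal is dim, at percentile 19.6 of all genes, and RMA compresses folds there.

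The first of 2 Kcne2 promoter windows is shown as the one of this called gene that held a match (RefSeq, GRCm38.p6, chr16:92292139-92292388, plus strand, 250 bases before the start, capitals as above).
Kcne2: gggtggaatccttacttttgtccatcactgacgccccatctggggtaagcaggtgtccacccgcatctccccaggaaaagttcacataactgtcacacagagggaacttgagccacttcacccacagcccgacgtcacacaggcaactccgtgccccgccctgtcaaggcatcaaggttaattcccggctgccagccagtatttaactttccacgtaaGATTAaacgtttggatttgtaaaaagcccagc
Its TAATC match, on the minus strand, lay 32 to 28 bases before the start, and the window of the second start held neither motif.

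Of the 4 other Kcne genes, the family of accessory subunits, none was called between the rhoGFP fractions, with differences of -0.07 to 0.27. Kcne1l was called higher at P4 than at P0 in both the rhoGFP-positive (1.18, limma adjusted p = 0.000478) and the rhoGFP-negative cells (1.10, limma adjusted p = 0.0216). Of 5 measured channel genes whose products KCNE2 is known to join or that act beside them, Kcnv2, a silent potassium channel subunit of photoreceptors, was called higher in the rhoGFP-positive cells (2.35 between the rhoGFP fractions and 3.08 against P0, limma adjusted p = 0.000577 and 6.63e-05). Kcnq3, a subunit of the M-type potassium channel, was called lower against P0 (-1.51, limma adjusted p = 0.00102). Kcnq1, Kcnh2 and Hcn2 were not called in any comparison.

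Each of 8 pairs of a rod gene and its cone counterpart was compared by the rod minus cone log2 value on every array, in the same limma fit. Between the rhoGFP fractions limma called the rod gene's difference larger than that of its cone counterpart in 6 of 8 pairs, and against the P0 cells in 7 of 8. The rhoGFP-positive cells were sorted by a rod reporter, so this direction was largely set in advance by the sort. The pairs therefore describe sizes only. The alpha subunit Gnat1 was 3.62 higher in rhoGFP-positive than in rhoGFP-negative cells where Gnat2 was 0.08 higher, a difference of 3.54 ± 0.35 (limma adjusted p = 7.15e-05). The gamma subunits Gngt1 and Gngt2 were 4.33 and 0.34 higher, apart by 3.99 ± 0.45 (limma adjusted p = 0.000163). The phosphodiesterase subunits Pde6b and Pde6c were apart by 3.12 ± 0.55 (limma adjusted p = 0.00243) and Pde6g and Pde6h by 3.16 ± 0.27 (limma adjusted p = 3.01e-05). The arrestins Sag and Arr3 were apart by 3.33 ± 0.51 (limma adjusted p = 0.001). This pair used the brightest Arr3 probe set, with a difference of 0.27. The other Arr3 probe sets gave larger ones, 0.58 and 1.01, and the pair was not tested with them.

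Cngb1 and Cngb3, the channel beta subunits, were both called higher, by 3.81 and 1.56, and the rod gene by 2.25 ± 0.33 more (limma adjusted p = 0.000814). So the cone gene that differed most between the rhoGFP fractions still differed less than its rod counterpart. The exceptions between the rhoGFP fractions were Gnb1 and Gnb3 (0.76, limma adjusted p = 0.0472, below the minimum) and Pde6a and Pde6c (1.32, 95% interval 0.05 to 2.59, limma adjusted p = 0.131). With the replicate number as a block, which the arrays of these fractions follow, the pair Pde6a and Pde6c was called (limma adjusted p = 0.00813), which makes 7 of 8. Against the P0 cells the exception was again Gnb1 and Gnb3, where the cone gene differed by more, 1.71 against 1.24, without passing the test (rod minus cone -0.47, 95% interval -1.02 to 0.07, limma adjusted p = 0.161). Gnb1 is the beta subunit of rod transducin and is also expressed in many other cells.

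Between the rhoGFP-negative and the P0 cells no pair had the rod gene called larger, and in 1 pair the cone gene was: Gnb3 was 1.09 higher and Gnb1 -0.15, a rod minus cone difference of -1.24 ± 0.24 (limma adjusted p = 0.0389). That call was lost without rhoGFP-positive replicate 2, without rhoGFP-negative replicate 1 or 2 and without nestinGFP-positive replicate 2 or 3, with values of -1.26 to -1.04 and adjusted p values of 0.0685 to 0.135. The replicate block gave 2 pairs with the rod gene larger, Pde6b over Pde6c (2.04, limma adjusted p = 0.00345) and Cngb1 over Cngb3 (1.03, limma adjusted p = 0.0151).

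**Figure D4:**
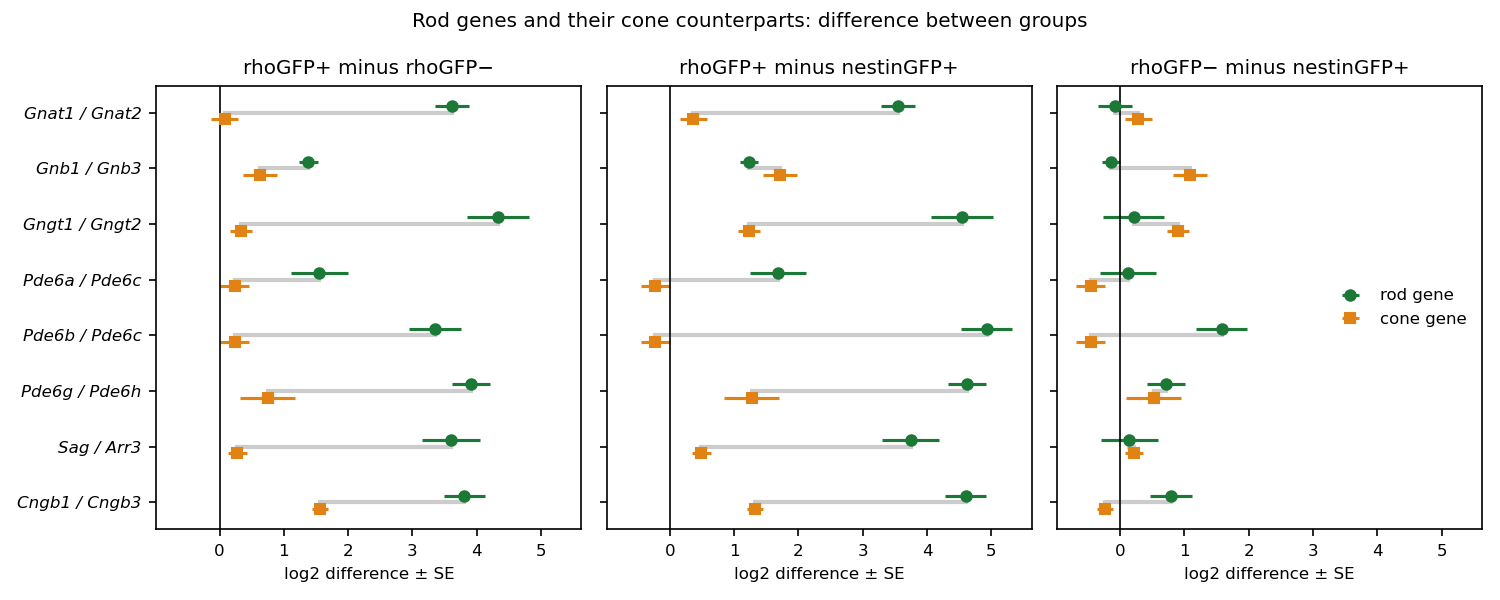
Log2 difference between groups of each rod gene (circles) and its cone counterpart (squares) in the 3 comparisons, with standard errors (n = 3 arrays a group). In the left panel Gnat1 stands at 3.62 and Gnat2 at 0.08; Gnb1 and Gnb3 are the closest pair in the left and middle panels, and Gnb3 is ahead of Gnb1 in the middle and right panels.

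Of 22 genes listed as shared by rods and cones, 18 were measured, among them Slc24a2, which is also listed below as enriched in cones. Between the rhoGFP fractions 13 of 18 were called higher and none lower, with a median difference of 1.83. Against the P0 cells 15 of 18 were called higher and none lower, with a median of 2.39. Between the rhoGFP-negative and the P0 cells only Unc119, a lipid-binding transport protein of photoreceptors, was called (1.03, limma adjusted p = 0.0293). The largest differences between the rhoGFP fractions were those of the retinol dehydrogenase gene Rdh12 (4.57), the axoneme gene Rp1 (3.51), the calcium sensor Rcvrn (3.48) and the guanylate cyclase Gucy2e (2.57). Rgs9, which speeds the shutoff of transducin, and the exchanger gene Slc24a2 of cones were not called in either comparison of the rhoGFP-positive cells (0.13 and -0.49 between the rhoGFP fractions, 0.44 and -0.69 against P0). Nor was Guca1b, which stayed below the 1-unit minimum at 0.53 and 0.82 (limma adjusted p = 0.0144 and 0.00083).

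Of 16 regulators of photoreceptor and cone fate, 15 were measured. The nuclear receptor gene Rxrg, which acts with the thyroid hormone receptor to set the opsin of a cone, stood at 9.06, 9.60 and 9.71 on the rhoGFP-positive arrays, at 7.65, 7.63 and 7.43 on the rhoGFP-negative arrays and at 6.99, 7.20 and 7.32 on the nestinGFP-positive arrays. The rhoGFP-positive arrays lay apart from all others, by 1.89 ± 0.17 (limma adjusted p = 4.11e-05) from the rhoGFP-negative and 2.28 ± 0.17 (limma adjusted p = 8.61e-06) from the P0 cells. Its partner in cones, the thyroid hormone receptor gene Thrb, was dim and not called, at 5.94, 5.07 and 5.20 on the rhoGFP-positive arrays and at 4.91 to 5.12 on the 6 others. Its difference was 0.40 ± 0.20 between the rhoGFP fractions (limma adjusted p = 0.202) and 0.43 ± 0.20 against P0 (limma adjusted p = 0.126). Rxra, a related retinoid receptor, was called higher by 1.06 in both comparisons.

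The rod-fate factor Nrl and the photoreceptor factor Crx had means in the order rhoGFP-positive, rhoGFP-negative, P0, from high to low. Nrl was 1.06 higher in the rhoGFP-positive than in the rhoGFP-negative cells (limma adjusted p = 0.0185), 2.54 higher than at P0 (7.34e-05), and the rhoGFP-negative cells were 1.48 above P0 (0.0314). Crx differed by 0.71 between the rhoGFP fractions (limma adjusted p = 0.114), by 2.07 from P0 (0.000356) and, for the rhoGFP-negative cells, by 1.37 from P0 (0.0478). Otx2, which acts above Crx, was not called in any comparison (-0.25, 0.61 and 0.86). Nr2f1, a nuclear receptor known to shape opsin patterning in mouse cones and also expressed in amacrine and other inner retinal cells, was called lower in the rhoGFP-positive cells, by -1.93 against the rhoGFP-negative and -2.37 against the P0 cells (limma adjusted p = 3.84e-05 and 7.73e-06). In all, 3 regulators were called higher and 1 lower between the rhoGFP fractions, 7 higher and 1 lower against P0, and 2 higher between the rhoGFP-negative and P0 cells, with medians of 0.24, 0.81 and 0.40. These changes moved beside those of the rod, progenitor and amacrine markers given above, and the part of those cells in them was not tested.

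**Figure D5:**
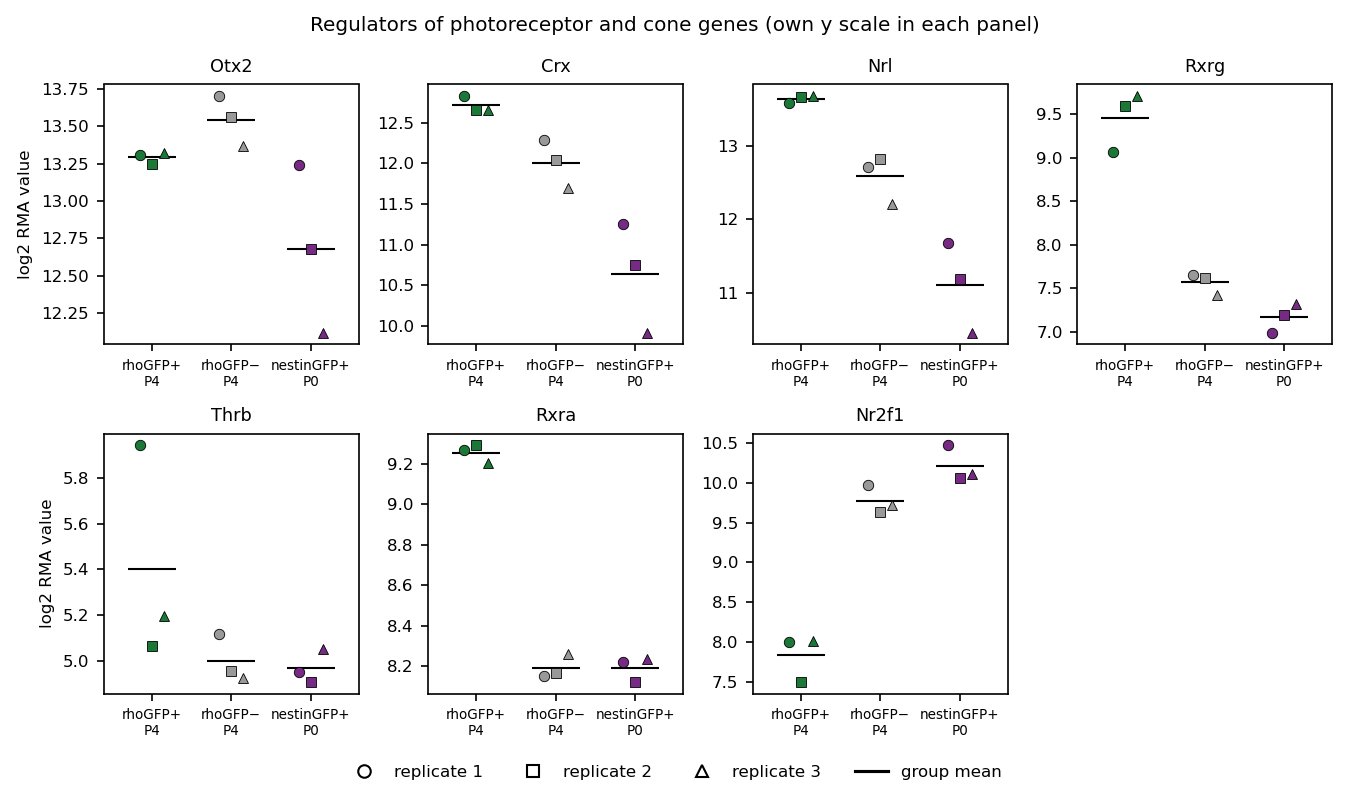
Log2 RMA values of 7 regulators of photoreceptor and cone genes on the 9 arrays, by group and replicate, with the group mean as a bar and an own y scale in each panel. Rxrg and Rxra are high on the 3 rhoGFP-positive arrays alone, Nr2f1 is low on them, and Thrb is high on a single rhoGFP-positive array.

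Of 8 measured genes of 9 others listed as enriched in cones, only Rxrg was called between the rhoGFP fractions. The listed gene that was not measured was Cnga3. Rxrg, Thrb and Sall3 are also among the regulators above and Slc24a2 among the shared genes, so the Rxrg call is counted in both lists. Rxrg and Otop3, a proton channel gene, were called higher against P0 (1.18 for Otop3, limma adjusted p = 0.0014), and Otop3 was also 1.09 higher in the rhoGFP-negative than in the P0 cells (limma adjusted p = 0.032). The medians of these 8 were 0.05, 0.25 and 0.37 in the 3 comparisons. Among 4 measured non-visual opsins and related receptors, Rgr, a retinal G protein-coupled receptor that binds retinaldehyde, was called higher in the rhoGFP-positive cells by 1.43 against the rhoGFP-negative and 1.85 against the P0 cells. Rrh, the peropsin gene known from the pigment epithelium, was called lower by -2.43 and -3.21. Opn3 and Opn4 were not called.

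The genes whose pattern over the 9 arrays was nearest to that of a member were ranked by the root mean square distance of gene-centred log2 values. For Cngb3 they were Fgfr3, Plpp6 and Lyar, at 0.130, 0.131 and 0.133 log2 units, small against the range of 1.83 that Cngb3 itself covered. For Kcne2 they were Ccdc65, Ptges2 and Ubtd1 (0.165 to 0.185), and for Opn1sw Pipox, Cltb and Oaz3 (0.146 to 0.282). For Gngt2 they were C2cd4b, Egr1 and Kcne1l (0.154 to 0.173), for Gnb3 Slc6a9, Plcd1 and Glo1 (0.233 to 0.262) and for Pde6h Nfe2l2, Chchd3 and Plekhf2 (0.365 to 0.380). With 9 arrays in 3 groups, many genes share such a pattern, and the ranking describes these arrays only.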

How the data were processed

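The series matrix held log2 values of 45101 probe sets on 9 arrays, deposited by the authors and made with RMA, per the submitters' processing notes. Scan batches and the RMA version, not given in the sources used here, could not be considered. RMA compresses low signals, so folds of dim genes are understated. There are no detection calls, and no value column was left unused. The platform annotation tied 34945 probe sets to a single symbol, 932 to several and 9160 to none; a gene was read from the probe set with the highest mean, which gave 18193 genes.

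One linear model with 3 group means was fitted to all 9 arrays (limma 3.58.1, R 4.3.3, moderated by eBayes, two-sided tests), with Benjamini-Hochberg adjustment over all genes, or over 18201 features when the 8 rod minus cone values were added. Calls required both an adjusted p below 0.05 and a log2 difference of 1 or more in size. The steps were tested on simulated data. Arrays are biological replicates per the labels, and their number limits the precision. The labels give the same replicate numbers in each group without saying what a number shares. Deviations of same-numbered arrays from their group means correlated at 0.62, 0.45 and 0.45 between the rhoGFP fractions, at 0.54, 0.15 and 0.23 for rhoGFP-negative with nestinGFP-positive arrays, and at 0.52, -0.0081 and 0.25 for rhoGFP-positive with nestinGFP-positive arrays. By this check, which rests on the data rather than the design, the numbers pair the arrays of the rhoGFP fractions. For rhoGFP-negative with nestinGFP-positive arrays it was mixed. There rhoGFP-negative replicate 2 correlated more with nestinGFP-positive replicate 3 (0.22) than with replicate 2. Block results for that comparison therefore rest on a pairing that is not shown. For rhoGFP-positive with nestinGFP-positive arrays the numbers do not pair them.

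The members and lists were chosen with earlier results of these data known. All members and their rod counterparts were named, with Thrb, Rxrg, Crx, Nrl and Otx2, up to 4 called genes of a list with the largest differences, and the 3 genes nearest in pattern to Opn1sw and each called member. Other genes named beside counts (markers, genes not called) were chosen after their values were seen. Promoter sequences came from RefSeq (GRCm38.p6). Alternatives were other normalizations (common median, quantile, cyclic loess), other probe sets or their mean, leaving out _x_at and _s_at probe sets or genes below the 40th percentile, the replicate block, fits of the 6 arrays of a comparison, other thresholds, trended and robust eBayes, replicates 2 and 3 alone and leaving out each array. The members were run under 20 to 23 alternatives and the rod and cone pairs under 11. Figures were drawn with matplotlib 3.10.9.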

Additional observations from a re-analysis of the deposited data

How the results depend on the processing

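With 3 arrays a group, single arrays decided the calls near the threshold. Of 30 results for single members, 21 kept their direction and side of the threshold under all alternatives, and of 8 calls 5 did: Cngb3 in both comparisons of the rhoGFP-positive cells, and Gnb3, Gngt2 and Kcne2 against P0. Of 14 called rod and cone pairs, 12 did so under the 11 alternatives run for pairs. Members were run under 20 to 23 alternatives, so these shares cannot be set side by side. Between the rhoGFP fractions the number of members called higher dropped from 2 to 1 with cyclic loess (Kcne2 at 0.97), without genes below the 40th percentile (where Kcne2 and Opn1mw are not tested, which leaves 8 members) and with replicates 2 and 3 alone, and was 1 to 2 when an array was left out. Against P0 it was 4 to 6 when an array was left out, 5 without the dim genes, 4 at an adjusted p below 0.01 and 8 with no minimum difference (Opn1mw and Arr3 added). Of all genes tested, 22.2% were called in either direction without the dim genes, 14.9% at an adjusted p below 0.01 and 35.8% with no minimum. For rhoGFP-negative minus P0, the replicate block raised the number of members called higher from 0 to 1 (Gnb3). No minimum difference (Gngt2) and replicates 2 and 3 alone (Gnb3, 1.31) did the same. That number was 0 to 1 when an array was left out. In that comparison the pairs with the rod gene larger rose from 0 to 2 under the block and were 0 to 2 when an array was left out, against 6 to 6 between the rhoGFP fractions and 6 to 7 for rhoGFP-positive minus P0. The block raised the calls over all genes in that comparison from 180 to 453. For Pde6a and Pde6c it also gave a call between the rhoGFP fractions (1.32, limma adjusted p = 0.00813, so 7 pairs), and against P0 the call of this pair was lost without nestinGFP-positive replicate 2 (1.73, 0.0871) or 3 (1.74, 0.0738). With only the 6 arrays compared, 28 genes were called between the rhoGFP-negative and P0 cells. Directions turned only in values that were not called when 1 array was left out: Gnat2 between the rhoGFP fractions (-0.082 to 0.32) and, for rhoGFP-negative minus P0, Sag minus Arr3 (-0.68 to 0.43) and Pde6g minus Pde6h (-0.018 to 0.55). With the mean of its probe sets Opn1sw was below the minimum against P0 (0.82) and Arr3 above it (1.01). The cause of these changes was not tested.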
